A study of Mus musculus with 6 samples.

Results

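The forkhead (Fox) family of transcription factors was followed in mouse embryos that lack Paraxis, the basic helix-loop-helix factor encoded by Tcf15, and in wild-type (WT) embryos. Members were taken by name from the array annotation as every gene called Fox plus a letter from a to r and a number, leaving out Foxa2, Foxo6 and Foxs1. This gave 37 of the 28034 gene names on the array. They were represented by 52 probes, and 30 members could be tested together with 19340 other genes.

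The Paraxis-/- and WT groups each held 3 pools of tissue from 5 C57BL/6J embryos at embryonic day 9.5. The tissue was the front of the presomitic mesoderm with the 4 newest somites, the segments of paraxial mesoderm from which vertebrae, ribs, muscle and dermis form. A Paraxis-/- pool and a WT pool shared 2 arrays with the dyes exchanged, which gave 3 independent pairs of pools, named A, B and C by the letter of their WT pool. Nothing else distinguishes the groups in the labels, and the nature of the targeted allele is not given in the sources used here.

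Forkhead proteins bind DNA through a winged-helix domain, and several of them can open closed chromatin. Foxc1 and Foxc2 are the members known for paraxial mesoderm: mouse embryos without both form no proper somites. Other members mark the tissues that border the somites, among them Foxa factors in endoderm, notochord and floor plate, Foxf factors in lateral mesoderm and Foxd3 in neural crest, while the Foxo, Foxk, Foxm and Foxn genes act in many cells.

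Related members could in principle share signal on an array, so the probes were compared first. All 52 were 60 bases long, and in the 1305 pairs of probes from different members the best ungapped alignment over at least 50 bases had a median of 20 matching bases. The probes for Foxc1 and Foxc2, whose proteins are close relatives, matched at 20 of 60 bases, or 33.3%. The closest pair was a probe for Foxp2 (mm9, chr6:15363873-15365044, plus strand) and one for Foxp4 (mm9, chr17:48006730-48008227, minus strand), both of which join sequence across an intron. They are shown with the 44 matching bases of 59 aligned in capitals, and the next closest pair matched at 28 of 58.
Foxp2: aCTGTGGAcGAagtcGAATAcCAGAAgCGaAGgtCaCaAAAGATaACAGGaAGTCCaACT
Foxp4: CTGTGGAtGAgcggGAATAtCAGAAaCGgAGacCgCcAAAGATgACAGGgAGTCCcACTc

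Paraxis is of the protein class that binds E-boxes, written CANNTG, so the 250 bases before the start site of the forkhead genes were searched for these letters, which read the same on both strands. The RefSeq table for GRCm38.p6 held 27 such promoters for 24 members, and 16 of them, or 59.3%, contained an E-box. Of all 32851 promoters in that table, 66.2% did. The windows of Foxc1 (chr13:31806396-31806645, plus strand) and Foxo1 (chr3:52268087-52268336, plus strand) are shown because both genes are described below. The first contained no E-box, and the second contained 1, given in capitals.
Foxc1: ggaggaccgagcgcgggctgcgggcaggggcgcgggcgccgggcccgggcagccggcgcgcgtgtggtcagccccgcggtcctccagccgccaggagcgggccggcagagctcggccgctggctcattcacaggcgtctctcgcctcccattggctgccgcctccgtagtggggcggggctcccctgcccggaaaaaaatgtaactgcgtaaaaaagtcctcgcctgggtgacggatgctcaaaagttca
Foxo1: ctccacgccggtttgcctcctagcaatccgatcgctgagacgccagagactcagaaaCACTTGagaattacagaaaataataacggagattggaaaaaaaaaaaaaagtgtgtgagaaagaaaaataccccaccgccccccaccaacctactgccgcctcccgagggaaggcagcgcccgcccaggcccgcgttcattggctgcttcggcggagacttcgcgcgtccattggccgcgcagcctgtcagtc

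The labels were checked through Tcf15 on chromosome 2. Its log2 ratio of Paraxis-/- over WT was -5.23, -5.48 and -5.52 in pairs A, B and C, which is 42.5-fold lower with an adjusted p of 0.0007167 in limma. The number of gene spots well above background, out of 43379 per array, ranged from 28683 to 31795 for Paraxis-/- and from 27080 to 30982 for WT. Slide 1 held pair A and slide 2 the other pairs, so slide and pool A cannot be told apart. The presomitic and somite markers were present in both groups: all 9 of the 10 listed genes that were tested gave signal well above background in every one of the 6 measurements per genotype.

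No forkhead gene passed the threshold of 0.05 on the p adjusted over all 19370 tested genes in limma, which 0.0258% of all genes did. At an unadjusted p under 0.05 limma called 3 of the 30 tested members, or 10%, against a background of 5.02%, and all 3 lay on the lower side, where the background was 2.72%. None lay on the higher side, where it was 2.3%. They were Foxd2, Foxo1 and Foxc1. With 3 pairs an exact sign-flip test of a single gene cannot go below a two-sided p of 0.25. The mean log2 ratio of the 30 members had a median of -0.01 and ran from -0.46 to 0.53, with quartiles of -0.13 and 0.08. Over all tested genes the median was 0 and the quartiles were -0.06 and 0.07. The median size of the ratio, regardless of sign, was 0.11 for the forkhead genes and 0.07 for all genes.

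Direction was shared by the 3 pairs for 6 of the 30 members, or 20%, beside 25.7% of all genes. Foxb1 and Foxj3 were above WT in each pair, and Foxd2, Foxo1, Foxc1 and Foxp1 were below WT in each pair. By mean ratio 13 members were above 0 and 17 below, while 51.7% of all genes were above 0.

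**Figure D1:**
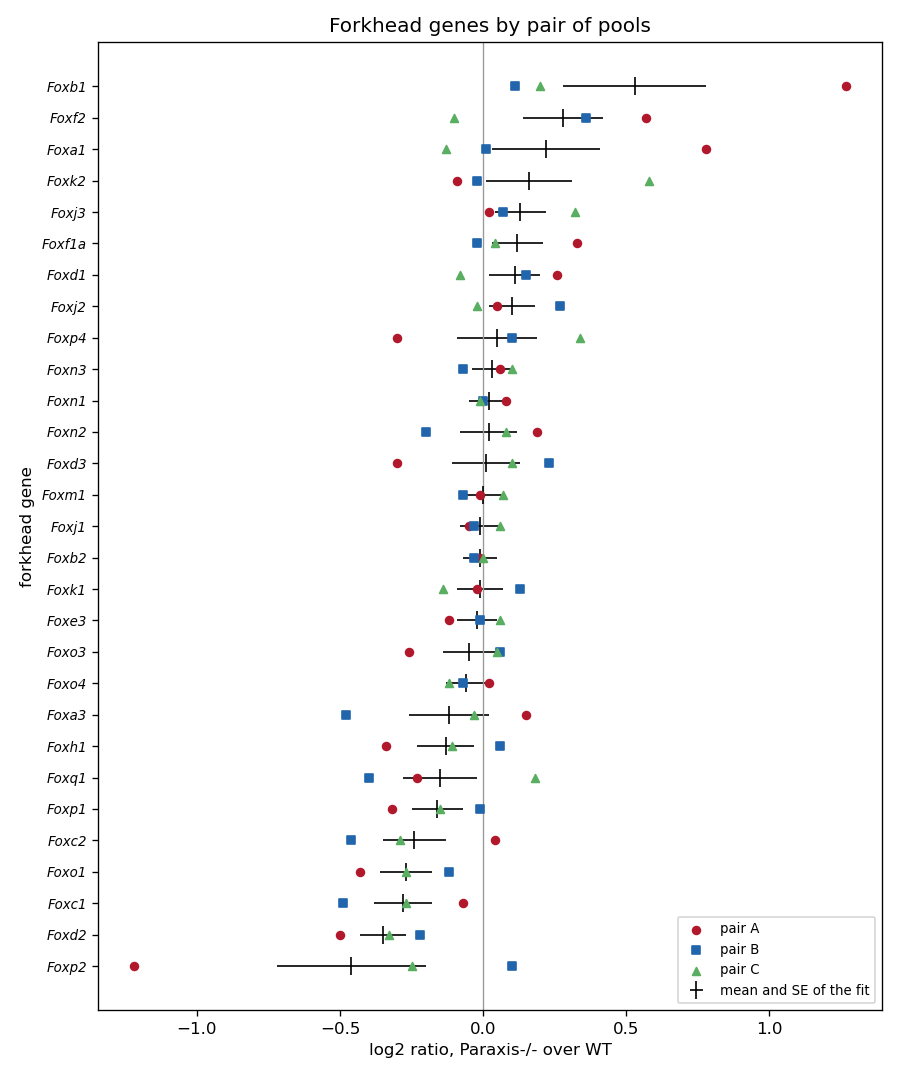
Log2 ratio of Paraxis-/- over WT (horizontal axis) for 29 of the 30 tested forkhead genes (vertical axis), ordered by mean. Coloured symbols are the 3 pairs of pools and the black bars are the mean with the SE of the limma fit. The means of all 30 have quartiles of -0.13 and 0.08, the widest spreads are those of Foxp2 and Foxb1, and the outermost symbols of both come from pair A.

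The Foxc genes, which specify paraxial mesoderm and are also needed in vessels and heart, both had mean ratios below 0, and neither passed the adjusted threshold. Foxc1 (probe on mm9, chr13:31901257-31901316) had log2 levels of 13.22, 13.36 and 13.40 in the Paraxis-/- pools of pairs A, B and C, against 13.29, 13.85 and 13.68 in the WT pools. The Paraxis-/- pools lay close together, and the WT pool of pair A fell among them, so the groups overlapped. The ratios were -0.07, -0.49 and -0.27, with a mean of -0.28 (SE 0.10, n = 3 pairs, 95% interval from -0.54 to -0.01). In limma this gave an unadjusted p of 0.04238 and an adjusted p of 0.953. Of the 6 single arrays, 5 had a ratio below 0. The unadjusted p in limma was 0.01321 without pair A, 0.2056 without pair B and 0.09812 without pair C.

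Foxc2 (probe on mm9, chr8:123642693-123642752) had log2 levels of 12.89, 12.68 and 12.90 in the Paraxis-/- pools of pairs A, B and C, against 12.85, 13.14 and 13.19 in the WT pools. Again the WT pool of pair A lay among the Paraxis-/- pools, and the other WT pools were higher. The ratios were 0.04, -0.46 and -0.29, with a mean of -0.24 (SE 0.11, n = 3 pairs, 95% interval from -0.54 to 0.06) and a limma adjusted p of 0.953. The order of the pairs was the same for both Foxc genes, with pair B the furthest below WT, pair C next and pair A at or near no difference. Without pair A, which is the same as slide 2 alone, the mean ratio was -0.38 for Foxc1 and -0.38 for Foxc2. Without pair B it was -0.17 for Foxc1 and -0.12 for Foxc2.

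These are mixed tissues, so fewer cells of a type and less RNA per cell cannot be told apart. Beside the Foxc ratios, the presomitic and somite markers had a median log2 ratio of -0.49, and their median in pairs A, B and C was -0.63, -0.59 and -0.39. Of the 9 tested, 5 had an unadjusted p under 0.05, all of them lower: Meox2, Uncx, Tbx18, Aldh1a2 and Pax3. The list did not move as 1 group, since Tbx6, Meox1 and Dll1 had means of 0.69, 0.24 and 0.11. Mesp2 had a mean of -0.18. In pair A, Tbx6 stood at 2.43 and Dll1 at 0.66. The mean log2 level over the 9 markers ran from 10.80 to 10.97 in the Paraxis-/- pools and from 11.07 to 11.41 in the WT pools. The primitive blood markers, all 7 of 7 tested, had pair medians of 0.27, 1.1 and -0.12, and 2 of them had an unadjusted p under 0.05, both higher. Their mean log2 level ran from 11.21 to 11.70 in the Paraxis-/- pools and from 10.73 to 11.27 in the WT pools. The part of either in the Foxc ratios was not tested.

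**Figure D2:**
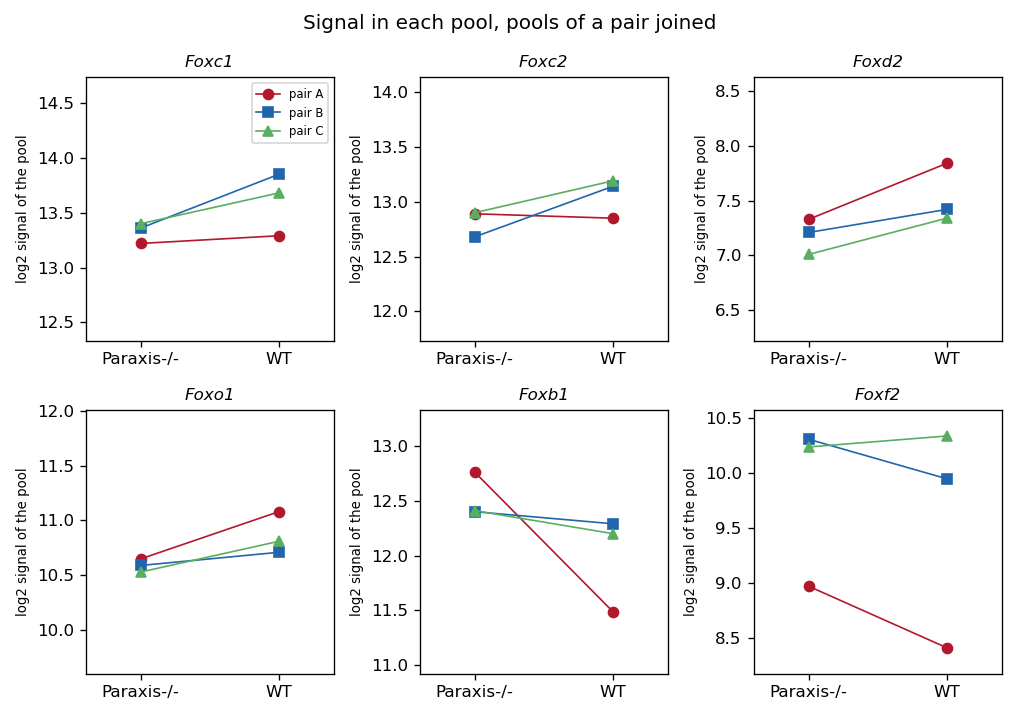
Log2 signal of each pool after loess and Aquantile normalization (vertical axis, the same span in each panel) for 6 forkhead genes in Paraxis-/- pools (left) and WT pools (right), with the pools of a pair joined by a line. Foxd2 and Foxo1 are below WT in each pair and their groups do not overlap, Foxb1 is above WT in each pair with most of its mean coming from pair A, and the pools of pair A have the lowest Foxf2 signal in both genotypes.

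Foxd2, known in mouse for a part in kidney development, had the smallest p of the family. Its log2 levels were 7.33, 7.21 and 7.01 in the Paraxis-/- pools of pairs A, B and C, against 7.84, 7.42 and 7.34 in the WT pools. Each Paraxis-/- pool was below each WT pool, although the margin between the groups was only 7.33 against 7.34. The ratios of -0.50, -0.22 and -0.33 gave a mean of -0.35 (SE 0.08, n = 3 pairs, 95% interval from -0.57 to -0.13), which is 1.28-fold lower. With Agilent processed signals the mean was -0.63, outside that interval, so the size of the ratio depends on the processing. In limma the unadjusted p was 0.009179 and the adjusted p 0.8125, and all 6 single arrays were below 0. Leaving out any 1 pair kept the unadjusted p in limma between 0.02157 and 0.02936. The annotation places its single probe of 60 bases on only 26 bases of chromosome 4 (mm9, chr4:114578885-114578910, minus strand). Its signal was well above background in each of the 6 Paraxis-/- and 6 WT measurements.

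The means of the other Foxd genes were nearer 0 or above it. Foxd1, known for the stroma of the kidney, had a mean of 0.11 (SE 0.09, n = 3 pairs), and its second probe had 0.13. Foxd3, a factor of neural crest, had ratios of -0.30, 0.23 and 0.10 in pairs A, B and C and a mean of 0.01. Foxe3, a lens gene 19.5 kb from Foxd2 on chromosome 4, had a mean of -0.02. Differences between these genes and Foxd2 were not tested. The intermediate mesoderm markers, from which the kidney forms (5 of 5 tested), had pair medians of 0.37, 0.08 and 0.08. Their mean log2 level ran from 8.86 to 9.03 in the Paraxis-/- pools and from 8.55 to 8.84 in the WT pools. None of the 5 had an unadjusted p under 0.05. The presomitic and somite markers, whose members went both ways as given above, had pair medians of -0.63, -0.59 and -0.39. The part of either list in the Foxd2 ratio was not tested.

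Foxo1 carries the signal of insulin and growth factors, since its protein leaves the nucleus when Akt phosphorylates it, and mouse embryos without it die with vessel defects. Its log2 levels were 10.65, 10.59 and 10.53 in the Paraxis-/- pools of pairs A, B and C, against 11.08, 10.71 and 10.81 in the WT pools. The groups did not overlap. The ratios of -0.43, -0.12 and -0.27 gave a mean of -0.27 (SE 0.09, n = 3 pairs, 95% interval from -0.50 to -0.05), with an unadjusted p of 0.02654 and an adjusted p of 0.953 in limma. Without pair A the unadjusted p in limma was 0.09132, and without pair C it was 0.07154. A second probe, 3.11 kb further along the gene, had ratios of -0.41, -0.06 and -0.31 and a mean of -0.26. The brighter probe, on which the values above rest, is shown because Foxo1 alone among the 3 genes at an unadjusted p under 0.05 had a second probe to set beside it (mm9, chr3:52150183-52150242, plus strand).
Foxo1: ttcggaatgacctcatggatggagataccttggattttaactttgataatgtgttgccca

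Beside Foxo1 the endothelial markers, 7 of 7 tested, had pair medians of -0.23, 0.11 and 0.03, and 1 of them, Kdr, had an unadjusted p under 0.05 in limma with a mean of 0.44. Their mean log2 level ran from 9.03 to 9.31 in the Paraxis-/- pools and from 9.11 to 9.31 in the WT pools. The presomitic and somite markers, whose members went both ways as given above, had pair medians of -0.63, -0.59 and -0.39. The part of either list in the Foxo1 ratio was not tested. Foxo3 and Foxo4, which answer the same signal, had means of -0.05 and -0.06 (SE 0.09 and 0.07, n = 3 pairs). Foxo3 was dim, well above background in only 3 of 6 Paraxis-/- and 4 of 6 WT measurements, so its ratio is a weak contrast to Foxo1. Of 15 genes listed as textbook Foxo response genes, 14 were tested, none passed the adjusted threshold in limma, and 1 had an unadjusted p under 0.05. That gene was Bcl6, a repressor of transcription, with ratios of 0.35, 0.17 and 0.21 in pairs A, B and C. The median of the list was 0.08, beside 0 for all genes. Next by p came Sesn1, Ccng2 and Igfbp1 with means of 0.19, 0.22 and 0.16, each above 0 in all 3 pairs.

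Foxb1, a gene of the neural tube, hypothalamus and thalamus, had the highest mean ratio of the family. Its log2 levels (probe on mm9, chr9:69605802-69605861) were 12.76, 12.40 and 12.41 in the Paraxis-/- pools of pairs A, B and C, against 11.49, 12.29 and 12.20 in the WT pools. The groups did not overlap, and the WT pool of pair A stood well below the other WT pools. The ratios of 1.27, 0.11 and 0.20 gave a mean of 0.53 (SE 0.25, n = 3 pairs, 95% interval from -0.12 to 1.18) and a limma adjusted p of 0.953. Without pair A the mean was 0.16. Non-overlap in this direction was found for 1 of the 30 members and 3.11% of all genes. In the other direction it was found for 2 members, Foxd2 and Foxo1, and 2.88% of all genes.

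Foxb1 and Foxd2 were also the 2 members with the same sign in all pairs and a mean log2 ratio of at least 0.32 in size, a rule met by 2.59% of all genes. By size alone 3 members reached it, these and Foxp2, beside 4.04% of all genes. Beside Foxb1, the neural tube markers (7 of 8 tested) had pair medians of -0.29, 0.16 and 0.37, and none had an unadjusted p under 0.05. Their mean log2 level ran from 9.87 to 10.10 in the Paraxis-/- pools and from 9.66 to 10.48 in the WT pools. In pair A these markers were on balance below WT while Foxb1 was furthest above it. The closely related Foxb2 had a mean of -0.01 (SE 0.06, n = 3 pairs) and was above background in all measurements. It was dim, with mean log2 levels of 6.61 in Paraxis-/- and 6.63 in WT, so its ratio is a weak contrast to Foxb1.

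The Foxf genes act in the mesenchyme of the gut and lateral plate, where hedgehog signals turn them on. Foxf2 had log2 levels of 8.97, 10.31 and 10.24 in the Paraxis-/- pools of pairs A, B and C, against 8.41, 9.95 and 10.34 in the WT pools. Both pools of pair A were lower than the other 4 pools, and this gap between pairs was larger than any gap between genotypes within a pair. The ratios were 0.57, 0.36 and -0.10, with a mean of 0.28 (SE 0.14, n = 3 pairs) and a limma adjusted p of 0.953. Without pair C the mean was 0.46, and without pair A it was 0.13. Foxf1a, the mouse gene also called Foxf1, had log2 levels of 7.03, 7.14 and 7.06 in the Paraxis-/- pools of pairs A, B and C, against 6.70, 7.16 and 7.02 in the WT pools. Its ratios of 0.33, -0.02 and 0.04 gave a mean of 0.12 (SE 0.09, n = 3 pairs).

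The lateral plate and splanchnic markers, 8 of 8 tested, had a median of 0.01 and pair medians of -0.08, 0.28 and -0.03. At an unadjusted p under 0.05 limma called 1 of them, Tbx5 of the heart and forelimb, which was higher in each pair, with ratios of 0.61, 0.38 and 0.52 and an unadjusted p of 0.001466. Their part in the Foxf ratios was not tested. Their mean log2 level ran from 8.30 to 8.65 in the Paraxis-/- pools and from 8.38 to 8.53 in the WT pools. Of 11 hedgehog pathway genes 11 were tested, none passed the adjusted threshold in limma and the median was -0.07. Ptch1, the hedgehog receptor and itself a target of the pathway, was the only one with an unadjusted p under 0.05, with ratios of 0.34, 0.32 and 0.23. Gas1 and Boc, co-receptors for the ligand, had means of -0.37 and -0.33, most of which came from pair A. Their ratios in pairs A, B and C were -0.80, -0.33 and 0.03 for Gas1 and -0.77, -0.08 and -0.15 for Boc.

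Foxc1, Foxf2 and Foxq1 neighbour each other on chromosome 13, and Foxc2 lies beside Foxf1a on chromosome 8. By probe positions in mm9, Foxq1 and Foxf2 were 71.3 kb apart, Foxf2 and Foxc1 178 kb, and Foxf1a and Foxc2 32.0 kb. Foxq1, known from the satin coat of mouse mutants, had log2 levels of 8.93, 9.40 and 9.87 in the Paraxis-/- pools of pairs A, B and C, against 9.15, 9.81 and 9.70 in the WT pools. Its ratios were -0.23, -0.40 and 0.18, with a mean of -0.15 (SE 0.13, n = 3 pairs). The mean ratios along chromosome 13 were thus -0.15, 0.28 and -0.28, and those on chromosome 8 were 0.12 for Foxf1a and -0.24 for Foxc2. In both clusters the Foxf gene had a mean above 0 and the Foxc gene a mean below 0, a difference that was not tested. Single pairs departed from it, with Foxf2 at -0.10 in pair C, Foxf1a at -0.02 in pair B and Foxc2 at 0.04 in pair A.

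Pair A stood apart for several members of other tissues. Foxa1, a pioneer factor of endoderm, had log2 levels of 7.84, 7.82 and 7.89 in the Paraxis-/- pools of pairs A, B and C, against 7.06, 7.81 and 8.02 in the WT pools. The ratios of pairs A, B and C were 0.78, 0.01 and -0.13. Foxa3, which acts in liver and gut, had a mean of -0.12 (SE 0.14, n = 3 pairs). It was well above background in only 4 of 6 Paraxis-/- and 4 of 6 WT measurements. The dye-swapped arrays of pair B gave it ratios of -1.27 and 0.32, so its mean is uncertain. Beside Foxa1, the gut endoderm markers (8 of 9 tested) had pair medians of 0.39, 0.03 and -0.01. Among them 1, Sox17, had an unadjusted p under 0.05 in limma, with ratios of 0.18, 0.33 and 0.37. The notochord and floor plate markers (6 of 7 tested) had pair medians of 0.65, -0.03 and 0.10, and none had an unadjusted p under 0.05. Their pair A median lies between separate groups of genes. T, Krt8 and Krt18 stood at 1.44, 1.15 and 1.04 in that pair, and Nog, Shh and Chrd at 0.25, 0.12 and -0.15. The mean log2 level of the gut markers ran from 8.59 to 8.77 in the Paraxis-/- pools and from 8.24 to 8.67 in the WT pools. For notochord and floor plate it ran from 9.98 to 10.35 in the Paraxis-/- pools and from 9.70 to 10.04 in the WT pools. For both lists the WT pool of pair A was the lowest of the 6 pools, as it was for Foxa1 and Foxb1, and their part in these ratios was not tested. The surface ectoderm markers (6 of 7 tested) had pair medians of 0.29, 0.10 and 0.08, and 1 of them, Wnt6, had an unadjusted p under 0.05 in limma with a mean of 0.22.

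**Figure D3:**
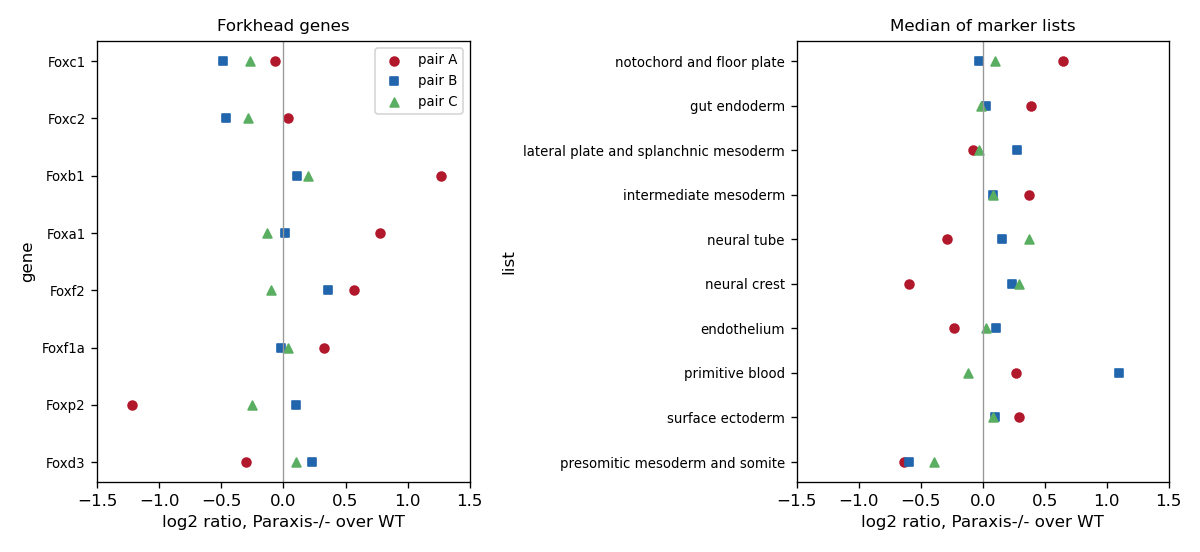
Log2 ratio of Paraxis-/- over WT by pair of pools (coloured symbols, horizontal axes) for 8 forkhead genes (left panel) and as the median of each marker list (right panel). In pair A, Foxb1 at 1.27, Foxa1 at 0.78 and the notochord and floor plate median at 0.65 are high. Foxp2 at -1.22 and the neural crest median at -0.59 are low there. The presomitic and somite median is below 0 in all 3 pairs. Some members differ from these medians in pair A, as Tbx6 at 2.43 and Dll1 at 0.66 among the presomitic and somite markers. Among the notochord and floor plate markers, Chrd is at -0.15.

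The Foxp genes are repressors, of which Foxp2 is best known for speech and motor learning. Foxp2 had the widest range between pairs of the family, with log2 levels of 8.14, 9.21 and 8.81 in the Paraxis-/- pools of pairs A, B and C, against 9.35, 9.11 and 9.05 in the WT pools. Only the Paraxis-/- pool of pair A was far from the rest. The ratios of -1.22, 0.10 and -0.25 gave the lowest mean of the family, -0.46 (SE 0.26, n = 3 pairs, limma adjusted p 0.953), and the second probe, the one printed above, had -0.66, 0.03 and 0.07. Without pair A the mean was -0.08. The neural crest markers, 7 of 7 tested, had pair medians of -0.59, 0.24 and 0.29. None had an unadjusted p under 0.05, and their mean log2 level ran from 10.05 to 10.51 in the Paraxis-/- pools and from 10.23 to 10.79 in the WT pools. Their part in the Foxp2 ratio was not tested. Foxp1 had a mean of -0.16 (SE 0.09, n = 3 pairs) and Foxp4 one of 0.05 (SE 0.14, n = 3 pairs).

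Foxm1, which drives genes of mitosis, had ratios of -0.01, -0.07 and 0.07 and a mean of 0 (95% interval from -0.18 to 0.18). All 14 genes of the Foxm1 mitotic list were tested, none had an unadjusted p under 0.05 in limma, and the median was 0.06. Foxk1, Foxn2 and Foxn3 had means of -0.01, 0.02 and 0.03, and Foxj2 and Foxj3 had 0.10 and 0.13. Foxk2 had 0.16 with its brightest probe, where pair C stood at 0.58, and 0.03, 0.03 and -0.21 with the other 3, so its probes disagreed in sign. Foxh1, the Smad partner in nodal signalling, had -0.13, from 5 arrays since 1 spot of pair A was left out as an outlier.

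Foxn1 of the thymus and Foxj1 of motile cilia had means of 0.02 and -0.01. Of 11 motile cilium genes linked to Foxj1, 7 were tested, and their median was -0.05. Spag6, a protein of the cilium's central apparatus, was well above background in 0 of 6 Paraxis-/- and 6 of 6 WT measurements, with mean log2 levels of 6.32 in Paraxis-/- and 6.98 in WT. It was kept only through its WT measurements, so its ratio is not read as a test.

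**Figure D4:**
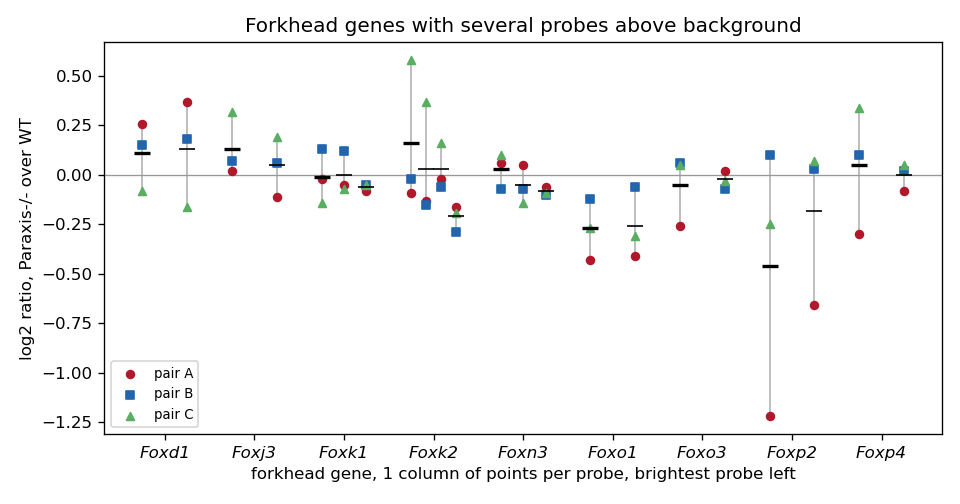
Log2 ratio of Paraxis-/- over WT by pair (coloured symbols, vertical axis) for the 9 forkhead genes with several probes above background, with 1 column of points per probe and its mean as a black dash (thicker for the brightest probe, at the left). Both Foxo1 probes have means of -0.27 and -0.26, while those of Foxk2 run from 0.16 to -0.21.

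The genes of the paraxial mesoderm list linked to Foxc1 and Foxc2, chosen from what mouse Foxc mutants are known to lack or what patterns the same tissue, did not move as 1 group. Of 18 genes 17 were tested, and 1, Pax1, passed the adjusted threshold. At an unadjusted p under 0.05 limma had 2 higher and 5 lower, and the median was 0, as it was for all genes. This list is not separate from the presomitic and somite markers above: 8 tested genes stand in both, out of 17 here and 9 there, and 4 of the 5 lower genes of each are the same. Pax1, a factor of the sclerotome, had ratios of -4.69, -4.18 and -4.19 and an adjusted p of 0.006014. Meox2, Uncx and Tbx18, factors of somite identity and polarity, had means of -1.59, -0.78 and -1.02 and adjusted p values of 0.1856, 0.2407 and 0.266. Each of these means was larger in size than that of Foxc1 or Foxc2. The list's pair medians were 0.21, -0.17 and -0.25, with pair A again the highest.

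The other 7 members gave no test. Foxd4, Foxe1, Foxi1, Foxi2, Foxn4 and Foxp3 were not well above background in enough measurements, and without that filter their mean ratios lay between -0.07 and 0.06. Foxl2, a gene of the ovary and eyelid, was well above background but was marked as an outlier on all 6 arrays, as 200 gene spots were. With outlier spots kept its ratios were -0.12, 0.11 and -0.02. No spot of any forkhead probe was saturated.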

How the data were processed

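RNA was measured on 6 two-colour Agilent arrays holding 3 pools per genotype. The deposited spot intensity comes from Agilent Feature Extraction 10.7.3.1 (slide 1) and 10.5.1.1 (slide 2) per the file headers, whereas the submitters' processing notes name 8.5.1.1. The authors' deposited matrix gives Cy5 over Cy3 as a log10 ratio, which differed from the scanner files' log10 ratio by at most 5e-11. Each of its columns had a median of 0.

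Median intensities went through normexp (offset 50) and loess, run with limma 3.58.1 in R 4.3.3. The 1639 control spots per array and the outliers (438 to 620 gene spots per array) had no weight in loess, and outliers were left out. The log2 ratios of both dye-swapped arrays were averaged within a pair. Probes well above background in at least 4 of 6 measurements of either genotype were kept (28639 of 41174), the brightest standing for its gene. The 19370 genes with at least 2 pairs, 64 of them with fewer than 3, were tested two-sided against a ratio of 0 (lmFit, eBayes), with p-values adjusted by Benjamini and Hochberg's method. The number of pairs of pools limits the precision. Pool levels are log2 signals after loess and Aquantile normalization, and levels of different probes are not compared except to name a probe as dim. Other genes were named through a RefSeq listing (26690 probes by accession, 5189 by symbol, 952 by synonym, 8343 by the file's name). Coordinates are those of the probes in mm9 per the file headers.

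The pairing comes from the shared arrays. For 2 arrays the title and the description name different pools, and the title was followed. Arrays that share a pair by title had deviations that correlated at 0.42, 0.63 and 0.64 across genes, and all other combinations lay between -0.44 and -0.12.

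The members and gene lists were chosen with earlier results of these data known. Pair values are given for Foxc1, Foxc2, members at an unadjusted p under 0.05, members of 1 sign in all pairs and with a mean log2 ratio of at least 0.32 in size, and neighbours of the Foxc genes, with up to 4 members of smallest p from each pathway list. Foxa1, Foxd3, Foxm1, Foxp2, Foxl2 and the single marker genes named fall outside this rule and were added after their values were seen. Pools are biological replicates per the labels. The script was tested on simulated pairs. Alternatives covered background correction, normalization, the dim-probe filter, probe choice, outlier spots, the deposited ratios, the pairing, the slide and leaving out each pair. Of the genes tested, 1 member and 1 gene of a pathway list are not reported here by name.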

Additional observations from a re-analysis of the deposited data

How the results depend on the processing

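Across 16 alternatives no forkhead gene passed the adjusted threshold in limma, and the smallest adjusted p was 0.1584, for Foxb1 with slide as a term. Foxc1 ran from -0.38 to -0.17 and Foxc2 from -0.38 to -0.12. For Foxc2 the unadjusted p in limma was 0.09486 in the main fit and under 0.05 in 4 of 16 alternatives. Foxd2 ran from -0.63, with Agilent processed signals and with the deposited ratios, to -0.27. Its unadjusted p in limma was under 0.05 in 16 of 16. Foxo1 ran from -0.35 to -0.20 (under 0.05 in 10 of 16) and Foxb1 from 0.16 to 0.74 (3 of 16). Foxf2 (0.13 to 0.46), Foxf1a (0.01 without pair A to 0.42 with the deposited ratios), Foxq1 (-0.31 without pair C to -0.03 without pair B) and Foxp2 (-0.73 to -0.08) also kept their sign. Of the other 21 members 13 changed sign at least once, all with ratios between -0.29 and 0.40. Foxc1 had an unadjusted p under 0.05 in 11 of 16 and in limma lost it without pair B (0.2056), without pair C (0.09812), with Agilent processed signals (0.08077), with the deposited ratios (0.081) and with median centring (0.1983).

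The count of forkhead genes at an unadjusted p under 0.05, 3 as reported, was 1 (Foxd2) with the deposited ratios and 1 (Foxd2) with median centring, 7 with no replicate block, 7 with slide as a term and 4 with the pair as a replicate block. The share of all genes in these fits was 5.36%, 7.27%, 10.3%, 8.62% and 6.15%, beside 5.02% as reported. With Agilent processed signals the forkhead count was 2 (Foxd2 and Foxo3), beside 5.37% of all genes. Leaving out 1 pair gave 2 to 3. The count of all genes past the adjusted threshold, 5 as reported, was 20 with scale normalization, 44 with the pair as a replicate block (within-pair correlation 0.47), 74 with no replicate block, 41 with slide as a term and 2 on slide 2 alone, and leaving out 1 pair gave 0 to 3. Fits on 6 arrays count dye swaps as further measurements. With slide as a term, a gene's residual spread comes only from pair B against pair C. The deviation of pair A is left out of that spread but still enters the mean. The cause of the other shifts was not tested. Slide 1 held 1 pair, so it allows no test of its own.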

Other observations

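On the array, 4 further probes carry a transcript accession as their name while their description names a forkhead gene, so they are outside the family as defined here. Both probes described as Foxp1 had mean log2 ratios of Paraxis-/- over WT of 0.01 and 0, with 0.24, -0.06 and -0.14 in pairs A, B and C for one and 0.12, -0.01 and -0.13 for the other, whereas the named Foxp1 probe was below 0 in each pair. The probe described as Foxn2 had -0.13, 0.03 and -0.32 and a mean of -0.14, beside 0.02 for the named probe. The remaining probe was not well above background in any measurement.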
